A study of Mus musculus with 25 samples.

Results

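Cytochrome P450 genes encode heme enzymes that add oxygen to steroids, vitamins, fatty acids and foreign chemicals. The 92 genes described here are the autosomal protein-coding mouse genes whose symbol is Cyp, a number, a letter and a number, out of 20665 autosomal protein-coding genes in the RefSeq table of GRCm38.p6, the assembly of mm10. Of these, 71 belong to families Cyp2, Cyp3 and Cyp4, which lie mostly in gene clusters, and 21 belong to other families. A further 7 protein-coding P450 symbols, such as Cyp51 and Cyp3a41a, fall outside that pattern and were not counted. H3K27me3 is the histone mark set by Polycomb repressive complex 2 (PRC2), whose usual catalytic subunit is Ezh2. It is known for covering silent developmental genes, and most P450 genes are known for expression in liver, intestine, kidney, adrenal or gonad rather than in fibroblasts or neural progenitors.

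The study examined transcriptional memory at Polycomb target genes with 25 libraries in 13 groups. Fibroblast line A (c-myc-immortalized mouse embryonic fibroblasts) was profiled for H3K27me3 by ChIP-seq as Ezh2 -/- cells, as Ezh2 -/- cells with retroviral pMSCV-Ezh2, and as wild type. Line B, of the same kind, was profiled as Ezh2 -/- (reversible), with Ezh2 rescued at the endogenous gene, and as wild type. Wild-type neural progenitor cells (NPC) made from embryonic stem cells were profiled by CUT&RUN, which cuts out antibody-bound chromatin with a tethered nuclease. They were treated with 2 uM UNC1999 together with 4 uM A395, both inhibitors of PRC2, washed free of both, or left untreated. Each of these groups had 2 libraries. The other 7 libraries (1 input, and pairs for H3K36me3, H3K4me3 and RNA polymerase II) are labelled as line A Ezh2 -/-, though their titles name EZH2, and were not analysed here.

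The values below come from 3 lists of H3K27me3 peak positions, 1 per cell system, with 86235 peaks for line A, 81972 for line B and 44807 for NPC. The lists hold no peak height, so the depth is unknown, and a position without a peak does not show that the mark was absent. The names of the fibroblast lists repeat titles of the wild-type and Ezh2 -/- libraries of each line, and the NPC name gives no condition. Beyond these names, no source used here says which libraries went into a list. Conditions therefore could not be compared (Ezh2 loss and rescue, or inhibitor and washout). With 1 list per system there is no replicate check and no test, and assay and cell type cannot be told apart between NPC and fibroblasts. Fibroblast peaks lay at few fibroblast marker genes, while NPC peaks were as frequent at fibroblast as at neural progenitor markers. Over all autosomal genes, counted as below, 32.9% had a line A peak, 33.6% a line B peak and 26.6% an NPC peak. Of 10 fibroblast marker genes, 1 had a line A peak (Col1a1, 893 bp), none a line B peak and 2 an NPC peak. Of 10 neural progenitor markers, 7 had a line A peak, 8 a line B peak and 2 an NPC peak. Neither of these NPC counts stood far from the all-gene share. Of 6 liver markers, 5 had a line A peak, 6 a line B peak and 5 an NPC peak, and of 6 gonad and adrenal markers 4, 3 and 2 had one.

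The bases before the RefSeq start of 5 P450 genes show how far promoters with and without peaks differ in sequence. Cyp26a1 had its start inside a peak in all 3 lists, Cyp26b1 in NPC alone and Cyp3a13 in all 3. Cyp1b1 and the liver gene Cyp3a11 had no peak in any list. Each run gives the 250 bases upstream of the start, 5′ to 3′ on the gene's strand, from RefSeq (GRCm38.p6), with CpG dinucleotides in capitals.
Cyp26a1 (chr19:37697558-37697807, plus strand): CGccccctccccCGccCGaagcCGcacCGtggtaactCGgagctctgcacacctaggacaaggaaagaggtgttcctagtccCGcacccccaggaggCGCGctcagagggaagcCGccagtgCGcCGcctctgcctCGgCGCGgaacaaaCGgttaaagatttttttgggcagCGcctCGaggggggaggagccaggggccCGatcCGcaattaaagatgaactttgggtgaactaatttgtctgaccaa
Cyp26b1 (chr6:84593811-84594060, minus strand): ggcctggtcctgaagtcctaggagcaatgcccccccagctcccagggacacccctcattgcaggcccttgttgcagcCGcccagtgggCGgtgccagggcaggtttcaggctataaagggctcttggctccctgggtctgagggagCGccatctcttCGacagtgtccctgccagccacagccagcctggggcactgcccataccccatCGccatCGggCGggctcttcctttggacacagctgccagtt
Cyp1b1 (chr17:79715062-79715311, minus strand): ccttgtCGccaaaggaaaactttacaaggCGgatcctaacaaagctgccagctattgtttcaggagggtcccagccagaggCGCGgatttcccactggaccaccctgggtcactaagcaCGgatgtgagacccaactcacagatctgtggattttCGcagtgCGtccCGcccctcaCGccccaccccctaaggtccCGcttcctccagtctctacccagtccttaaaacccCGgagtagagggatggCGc
Cyp3a13 (chr5:137921620-137921869, minus strand): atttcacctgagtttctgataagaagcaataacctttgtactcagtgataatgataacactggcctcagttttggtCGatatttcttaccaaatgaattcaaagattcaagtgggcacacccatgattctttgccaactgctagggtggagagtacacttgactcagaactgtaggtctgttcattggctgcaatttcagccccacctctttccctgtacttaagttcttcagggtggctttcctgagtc
Cyp3a11 (chr5:145879855-145880104, minus strand): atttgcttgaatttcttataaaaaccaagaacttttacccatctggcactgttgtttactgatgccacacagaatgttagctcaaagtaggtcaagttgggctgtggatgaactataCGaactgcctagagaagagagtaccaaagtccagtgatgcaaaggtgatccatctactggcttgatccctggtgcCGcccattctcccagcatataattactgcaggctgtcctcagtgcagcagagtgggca
These runs hold 20 CpGs in Cyp26a1, 7 in Cyp26b1, 12 in Cyp1b1, 1 in Cyp3a13 and 2 in Cyp3a11. CpG-rich and CpG-poor promoters were found both inside peaks (Cyp26a1 and Cyp3a13) and outside them (Cyp1b1 and Cyp3a11).

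P450 genes carried H3K27me3 peaks more often than the average gene in each list. With 2 kb counted on each side, the families outside the clusters did so more often than the clustered ones. A gene was counted where a peak covered at least 1 bp of its window, the RefSeq record and 2 kb on each side, and values in bp given for a gene are bases of that window under peaks. Line A peaks reached 47 of 92 P450 genes (51.1%), against 32.9% of all autosomal genes. Line B peaks reached 48 (52.2%, against 33.6%) and NPC peaks 48 (52.2%, against 26.6%). The P450 share thus lay above the background in each system. Of the 21 genes of other families, line A peaks reached 16 (76.2%), line B peaks 14 (66.7%) and NPC peaks 12 (57.1%). Of the 71 genes of families Cyp2, Cyp3 and Cyp4, they reached 31 (43.7%), 34 (47.9%) and 36 (50.7%). The clustered families were the closer of the classes to the background, although their windows were longer. With 5 kb on each side the order of the classes was reversed in NPC (57.1% of other families, 60.6% of clustered ones). The median window was 14021 bp in other families, 27024 bp in the clustered families and 21491 bp over all genes, and the part of window length in these shares was not tested.

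**Figure D1:**
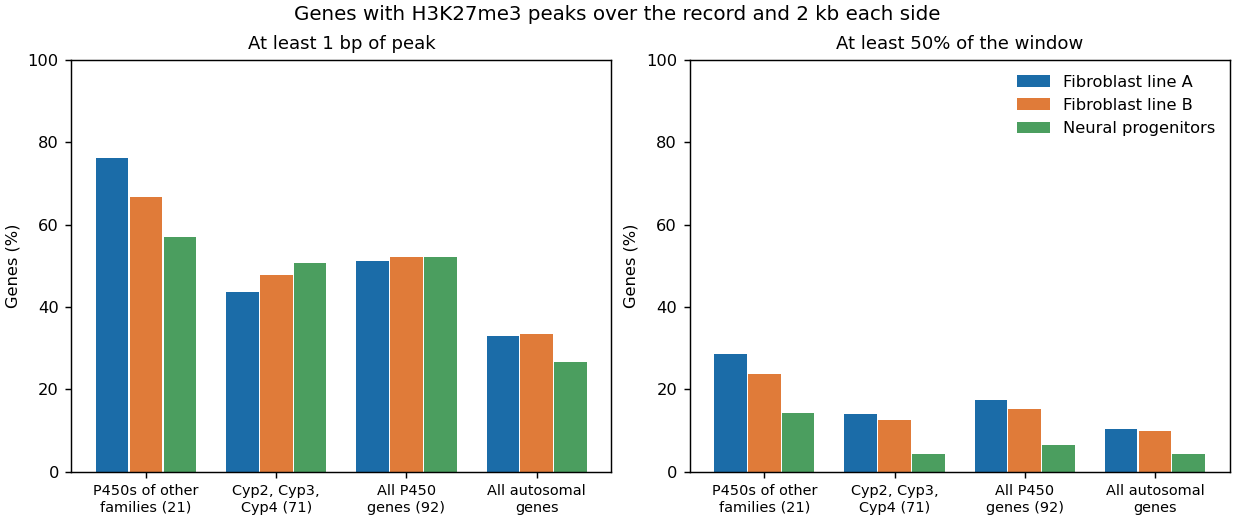
Bars show the percentage of genes with an H3K27me3 peak over the record and 2 kb each side, in 3 peak lists, for P450 genes of other families, of families Cyp2, Cyp3 and Cyp4, for all P450 genes and for all autosomal genes; the left panel counts at least 1 bp and the right panel at least 50% of the window. Other families stand at 57.1% to 76.2% in the left panel and at 14.3% to 28.6% in the right, above the other bars of the same list.

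Most of these genes had less than 50% of the window covered. At least 50% of the window was covered at 16 P450 genes by line A peaks (17.4%, against 10.4% of all genes), at 14 by line B peaks (15.2%, against 10.0%) and at 6 by NPC peaks (6.52%, against 4.25%). By length, 12.3% of all P450 windows was covered for line A, 14.7% for line B and 7.12% for NPC, against 10.7%, 8.83% and 5.14% of all gene windows. Without Cyp19a1, whose long record was the most covered, the line B value was 12.5%. The P450 share by length thus lay above the background in each list, with or without Cyp19a1 in line B. Peaks lay in all 3 lists at 23 of the 92 P450 genes (background 15.5%) and in no list at 23 (background 53.9%). A further 28 had one in exactly 2 lists (background 15.9%) and 18 in exactly 1 (background 14.7%). Single-list genes were 8 with a peak in NPC alone (background 5.59%), all in family Cyp2, 5 in line A alone (background 3.74%) and 5 in line B alone (background 5.35%). Both fibroblast lists had a peak at 34 (background 25.9%). The smallest counted overlaps were 278 bp at the lung enzyme gene Cyp4b1 for line A, 42 bp at the kidney enzyme gene Cyp2j5 in line B and 294 bp at Cyp2b19, of skin, in NPC, and the genes next in order had 0 bp.

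The retinoic acid enzymes of family Cyp26 break down retinoic acid and so shape its gradients in the embryo. Their coverage differed by gene and by cell system. Cyp26a1 (NCBI gene 13082, chromosome 19, 37697738 to 37701536) had a window of 7799 bp, of which line A peaks covered 5863 bp, those of line B 3018 bp and those of NPC 5576 bp. A line A peak of 4311 bp and a line B peak of 3018 bp spanned its start, while a single NPC peak of 8616 bp ran from the end of Cyp26c1 into Cyp26a1. Its start stood inside a peak in each list. Cyp26c1 (chromosome 19, 37685112 to 37693320), next to it, had 1666 bp from line A, 0 bp from line B and 3051 bp from NPC, and its start lay outside the peaks of all 3 lists. Cyp26b1 (gene 232174, chromosome 6, 84571414 to 84593908) had 0 bp covered from line A, 4694 bp from line B and 20340 bp, 76.8% of its window, from NPC. A single NPC peak of 19781 bp (chr6:84575501-84595281) spanned most of the gene and its start.

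Of 16 genes that act with these enzymes in retinoic acid synthesis, transport and sensing, 6 had a line A peak (background 32.9%), 9 a line B peak (background 33.6%) and 8 an NPC peak (background 26.6%). The line A count was close to the background. The genes with the most covered bp over the lists together were Stra6, Aldh1a2 and Rarb. Stra6, the retinol uptake receptor, had 68435 bp under line A peaks, 75134 bp under line B peaks and 45371 bp under NPC peaks. Aldh1a2, which makes retinoic acid in the embryo, had 98.4% of its window covered for line A, 91.5% for line B and 12.7% for NPC. The receptor gene Rarb had 0 bp from line A, 1317 bp from line B and 119013 bp from NPC. Coverage of Aldh1a2 was thus mainly in the fibroblast lists, and coverage of Rarb, like that of Cyp26b1, mainly in NPC. Rxra, Rxrb, Rdh10 and Dhrs3 had no peak in any list.

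Of the vitamin D enzymes, Cyp24a1 and Cyp2r1 differed widely between the fibroblast lines, and Cyp27b1 and Cyp27a1 less. Cyp24a1 (gene 13081, chromosome 2, 170482957 to 170497145), which inactivates vitamin D, had 2264 bp from line A, all 18189 bp from line B and 0 bp from NPC. In line B 1 peak of 28932 bp (chr2:170470483-170499414) covered the whole record, and the nearest NPC peak lay 1539 kb away. Cyp27b1, which activates vitamin D in kidney, had 2393 bp under line A peaks, 3037 bp under line B peaks and 0 bp under NPC peaks. Cyp27a1, a mitochondrial sterol hydroxylase of bile acid synthesis that also acts on vitamin D, had 13952 bp, 10763 bp and 1986 bp in line A, line B and NPC. Cyp2r1, the main liver vitamin D hydroxylase, had 14391 bp (85.0% of its window) for line A, 0 bp for line B and 1333 bp for NPC. Cyp24a1 and Cyp2r1 thus differed between the lines in opposite directions. Cyp2r1 lies on chromosome 7, where 19.1% of genes had a line B peak, against 35.1% of genes on the other autosomes. For line A peaks these shares were 26.6% on chromosome 7, against 33.6% elsewhere, and for NPC peaks 39.6%, against 25.2%. The part of that chromosome difference in the Cyp2r1 values was not tested. The vitamin D receptor gene Vdr had 0 bp from line A, 1628 bp from line B and 15272 bp from NPC.

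**Figure D2:**
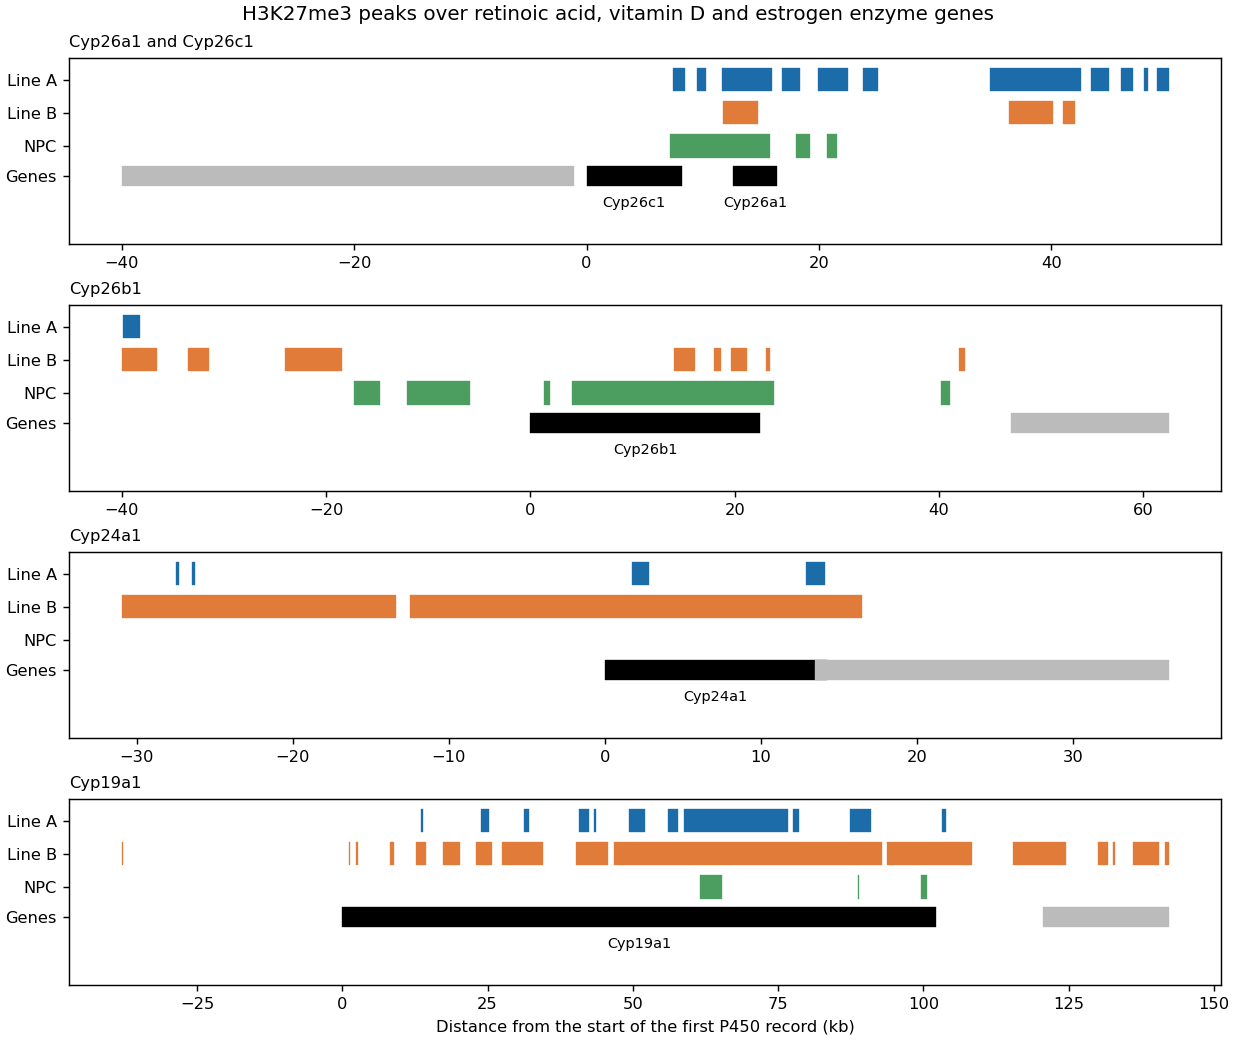
Blocks show H3K27me3 peaks of line A, line B and NPC around Cyp26a1 with Cyp26c1, Cyp26b1, Cyp24a1 and Cyp19a1, by distance in kb from the start of the first P450 record; black blocks are P450 records and grey blocks other protein-coding genes. Cyp24a1 lies wholly under 1 line B peak of 28932 bp and has no NPC peak, while a 19781 bp NPC peak covers most of Cyp26b1.

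All 6 genes of steroid hormone synthesis carried a peak over the record or the 2 kb beside it in at least 1 list, where 53.9% of all autosomal genes had none. Cyp11a1 (gene 13070, chromosome 9, 57998024 to 58027031) makes the first steroid of the pathway by cutting the cholesterol side chain. Its window was covered over 69.0% for line A, 75.0% for line B and 54.2% for NPC, so that each list covered more than 50% of it. Cyp17a1, needed for androgens, had 8641 bp (87.9%) in line A, where 1 peak of 17855 bp spanned the gene, 2560 bp for line B and 585 bp for NPC. Cyp19a1 (gene 13075, chromosome 9, 54165937 to 54268164), the aromatase that makes estrogens, had 32059 bp under line A peaks, 77785 bp under line B peaks and 5053 bp under NPC peaks. Its widest peak was 46104 bp in line B, and its start stood inside a peak in line B alone. Cyp11b2, which makes aldosterone, had 643 bp from line A, 7322 bp (76.2%) from line B and 0 bp from NPC, while its neighbour Cyp11b1 had 0 bp, 690 bp and 2478 bp in the same order. Cyp21a1, of the adrenal cortex, had 1662 bp in line A and 0 bp in both other lists. The line A peak lay beside the Cyp21a1 record and covered no base of it. Line B thus covered Cyp11a1, Cyp11b2 and Cyp19a1 most, and line A covered Cyp17a1 and the flank of Cyp21a1 most.

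Of 12 further genes of the steroid pathway, 7 had a line A peak, 8 a line B peak and 4 an NPC peak, against the same all-gene shares of 32.9%, 33.6% and 26.6%. Among the 12, Nr5a2, Srd5a2 and Nr5a1 had the most covered bp over the lists together. Nr5a1, which encodes a factor that switches on steroid enzymes, had 19278 bp under line A peaks, 13900 bp under line B peaks and 765 bp under NPC peaks. Nr5a2, its relative in liver and gonad, had 109986 bp, 51091 bp and 1418 bp, and Srd5a2, which makes dihydrotestosterone, 29251 bp, 5190 bp and 11657 bp in the same order. Star, which brings cholesterol to Cyp11a1, had no peak in any list. Fdxr, which passes electrons to mitochondrial P450 enzymes by way of ferredoxin, had 871 bp from line A, 2556 bp from line B and 0 bp from NPC. It was the single one of 9 electron donor and heme genes with a peak, where 53.9% of all autosomal genes had none. Por, the reductase of most P450 enzymes, had no peak.

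Of 5 genes of cholesterol and bile acid turnover, 4 had a peak in at least 1 list, where 53.9% of all autosomal genes had none. Cyp8b1, which sets the type of bile acid made, had 4973 bp (83.6%) under line A peaks, 1006 bp under line B peaks and 0 bp under NPC peaks. Cyp7a1, the rate-limiting enzyme of bile acid synthesis in liver, had 4863 bp in line A alone. Cyp7b1, an oxysterol hydroxylase, had 3641 bp from line A, 0 bp from line B and 5160 bp from NPC, under 3% of its long window. Cyp46a1, the cholesterol hydroxylase of neurons, had 2224 bp under line A peaks, 9630 bp under line B peaks and 2419 bp under NPC peaks. Cyp39a1, another oxysterol hydroxylase, had no peak in any list, and its nearest peaks lay 33.1 to 34.7 kb away. Cyp8b1, Cyp7a1 and Cyp7b1 thus had more coverage in line A than in line B, and Cyp46a1 had less.

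Family Cyp1, whose enzymes oxidize aromatic pollutants under control of the aryl hydrocarbon receptor, was split between neighbours and the lone gene Cyp1b1. Cyp1a2, a liver enzyme, had 9562 bp (89.2%) for line A, 8180 bp for line B and 4018 bp for NPC. Cyp1a1, its neighbour on chromosome 9, had 11858 bp, 7710 bp and 5997 bp in the same order. Cyp1b1 (gene 13078, chromosome 17, 79706940 to 79715061), known to be expressed in fibroblasts of the embryo, had 0 bp in all 3 lists. The nearest peak lay 135.0 kb away in line A, 200.5 kb in line B and 197.2 kb in NPC. Both neighbours were thus covered in every list and Cyp1b1 in none. The receptor gene Ahr had 0 bp in both fibroblast lists and 17395 bp in NPC, and its repressor gene Ahrr had 22793 bp from line A, 11838 bp from line B and 23469 bp from NPC. Cyp20a1, whose substrate is not known, also had no peak, with the nearest 195.3 to 688.6 kb away.

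**Figure D3:**
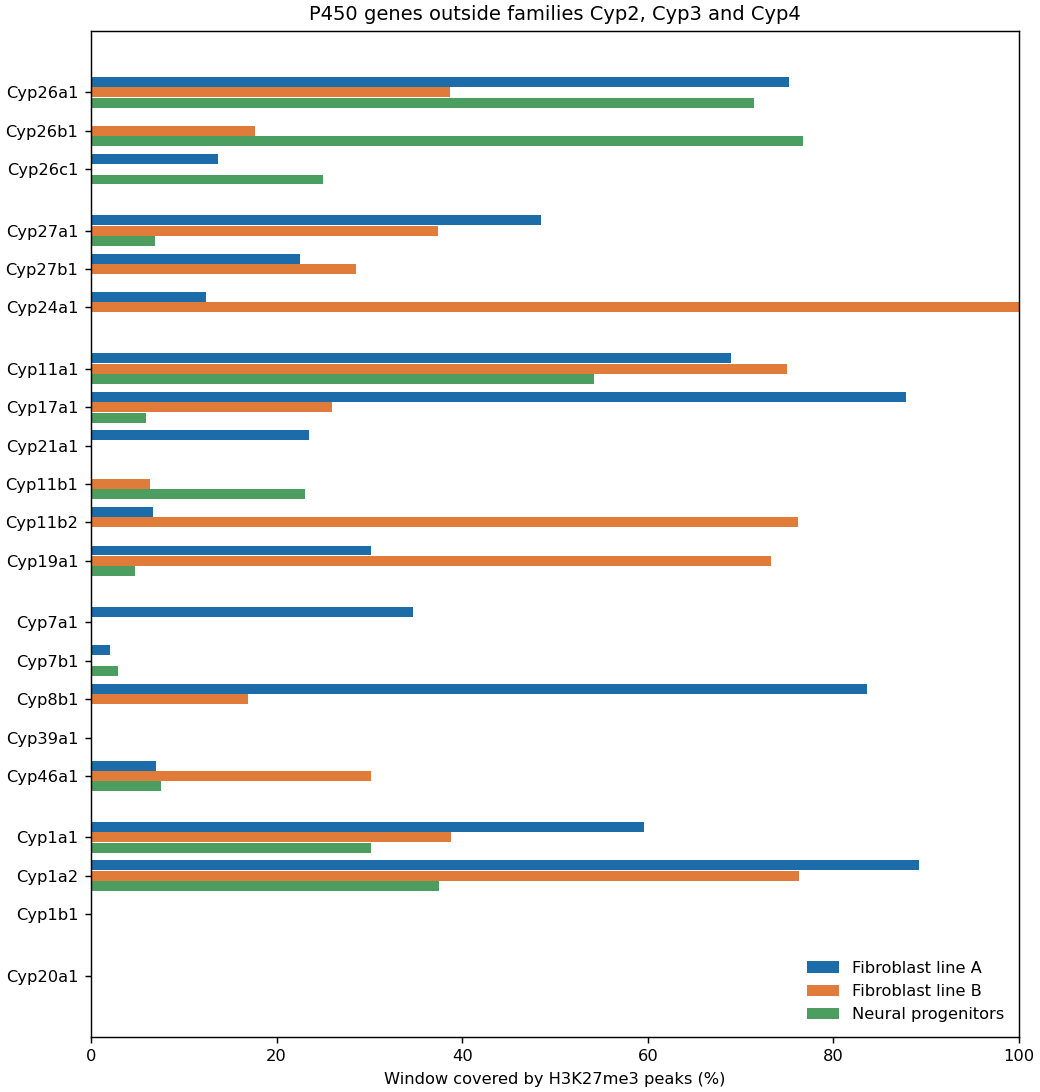
Horizontal bars show the percentage of the window (record and 2 kb each side) covered by H3K27me3 peaks in line A, line B and NPC for the 21 P450 genes outside families Cyp2, Cyp3 and Cyp4, grouped from top to bottom as retinoic acid, vitamin D and sterol, steroid hormone, cholesterol and bile acid, family Cyp1 and Cyp20a1. Cyp24a1 reaches 100% in line B, and Cyp39a1, Cyp1b1 and Cyp20a1 have no bar.

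Members whose records lay within 300 kb of each other formed 34 loci, of which 9 held 3 or more genes and 64 genes in all. Coverage of these larger loci ranged from 0% of the length at a Cyp3a cluster to 46.9% at the Cyp4f cluster in line A. The Cyp4f locus on chromosome 17 (32452697 to 32947415, 8 genes) was covered over 46.9% for line A, 45.8% for line B and 4.38% for NPC. Its genes encode hydroxylases of fatty acids and leukotrienes. Cyp4f39, a fatty acid hydroxylase of the skin, had 36572 bp under line A peaks, 35306 bp under line B peaks and 4741 bp under NPC peaks. Cyp4f37, Cyp4f40, Cyp4f15 and Cyp4f14 had between 44.0% and 55.5% of their windows covered in line A and between 59.2% and 79.7% in line B. Of the other 3 genes of the locus, 2 had peaks in line A alone and 1 had none. Cyp4f17 had 14237 bp and Cyp4f16 1281 bp in line A, with 0 bp in line B and NPC for both, and Cyp4f13 at the far end had 0 bp in all 3 lists although peaks lay 2.79 kb away in line A and 2.33 kb in line B.

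The Cyp2d locus on chromosome 15 (82370527 to 82794452, 8 genes), of drug-oxidizing liver enzymes, was covered over 37.9% for line A, 46.2% for line B and 7.87% for NPC. Coverage was lower over the gene windows than over the locus as a whole. Over the 8 windows, coverage was 27.1% for line A, 28.7% for line B and 2.50% for NPC. Cyp2d11 had 7005 bp (79.0%) from line A, 3554 bp from line B and 0 bp from NPC, and Cyp2d10 had 6176 bp, 5435 bp and 816 bp. The lines also differed over single genes of the locus. Cyp2d9 had 2567 bp from line A, none from line B and 1017 bp from NPC, and Cyp2d12 had 1614 bp in line A alone, whereas Cyp2d26 had 3236 bp in line B alone. Cyp2d40 had 554 bp in line A and 2951 bp in line B, Cyp2d22 1398 bp and 4938 bp, and Cyp2d34 587 bp and 981 bp, all with 0 bp in NPC.

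At both P450 clusters of chromosome 4 line B had more peaks than line A. The Cyp4 locus (115106323 to 115647721, 7 genes) was covered over 6.62% for line A, 27.3% for line B and 4.60% for NPC. Cyp4a12a, Cyp4a12b and Cyp4a30b fall outside the symbol pattern and were not counted. All 5 Cyp4a genes that were counted, of liver and kidney fatty acid hydroxylases, had a peak in line B (background 33.6%). These reached 12572 bp at Cyp4a32, 7433 bp at Cyp4a29, 7428 bp at Cyp4a14 and 5602 bp at Cyp4a31, with 837 bp at Cyp4a10. In line A Cyp4a32 alone had a peak, of 625 bp (background 32.9%). In NPC 3 of the 5 had one, of at most 1426 bp (background 26.6%). Cyp4x1, a brain P450 gene at the edge of the locus, stood apart from them with 21361 bp (67.3%) under line A peaks, 17551 bp (55.3%) under line B peaks and 16885 bp (53.2%) under NPC peaks. Cyp4b1, at the other edge, had 278 bp, 3459 bp and 0 bp. At the Cyp2j locus (96042660 to 96664171, 7 genes), whose enzymes oxidize arachidonic acid, 1 gene had a line A peak and 6 genes each had a line B or an NPC peak. The all-gene shares were the same 32.9%, 33.6% and 26.6% for line A, line B and NPC. Cyp2j13 had 1669 bp from line A, 13455 bp from line B and 1551 bp from NPC, and Cyp2j12 had 0 bp, 6117 bp and 8328 bp. Cyp2j8 had 1371 bp for line B and 5750 bp for NPC, Cyp2j6 1075 bp and 797 bp, and Cyp2j5 42 bp and 5871 bp. Cyp2j9 had 1510 bp in line B alone and Cyp2j11 3604 bp in NPC alone, so all 7 genes of the locus were reached by some peak. The largest covered share of a window was 34.6%, at Cyp2j13 in line B. By length, the locus was covered over 0.267% for line A, 4.58% for line B and 6.93% for NPC.

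**Figure D4:**
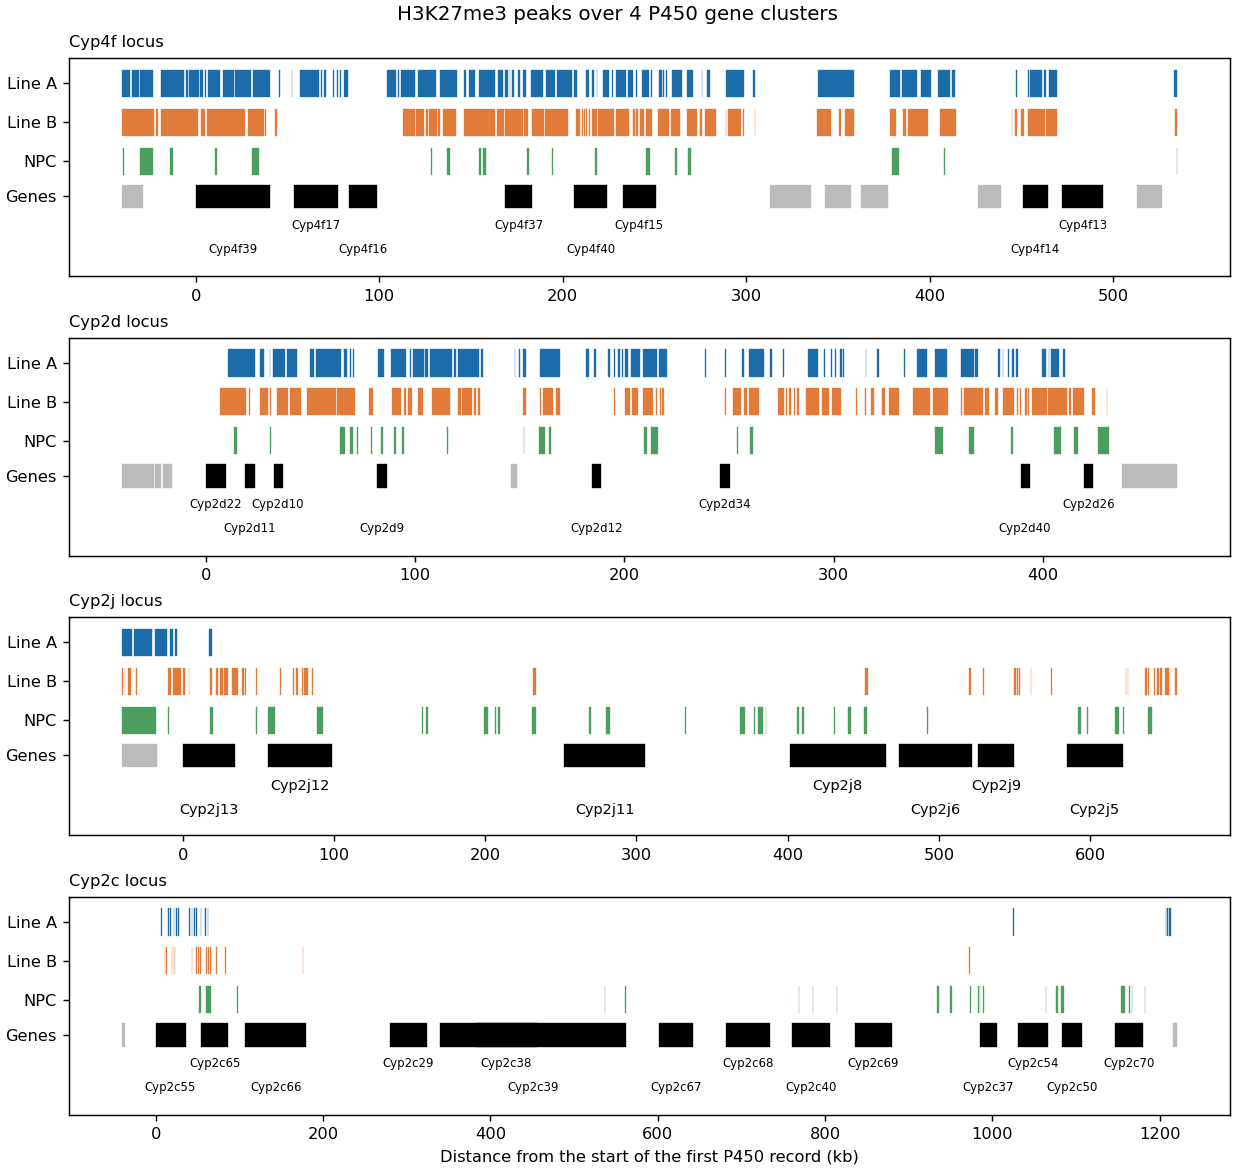
Blocks show H3K27me3 peaks of line A, line B and NPC over the Cyp4f, Cyp2d, Cyp2j and Cyp2c loci, by distance in kb from the start of the first P450 record; black blocks are P450 records and grey blocks other protein-coding genes. Fibroblast peaks fill much of the Cyp4f and Cyp2d loci (37.9% to 46.9% of the locus) and 0.941% to 1.03% of the Cyp2c locus.

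The Cyp2c cluster had few fibroblast peaks. The Cyp2c locus on chromosome 19 (39006940 to 40187286, 14 genes), of liver and intestine enzymes, was covered over 0.941% for line A, 1.03% for line B and 2.91% for NPC. Fibroblast peaks reached 3 of the gene windows, at one end of the locus, with 5138 bp at Cyp2c55 in line A and 2260 bp in line B, and 177 bp at Cyp2c66 in line B. Cyp2c65, an intestinal enzyme gene, had 1743 bp under line A peaks, 7791 bp under line B peaks and 7607 bp under NPC peaks, and its start stood inside a peak in each list. Further along, 6 genes had a peak in NPC alone (background 5.59%). They reached 7427 bp at Cyp2c70, 4070 bp at Cyp2c50 and 1992 bp at Cyp2c37, with 1231 bp at Cyp2c39, 970 bp at Cyp2c40 and 347 bp at Cyp2c54. Cyp2c29, Cyp2c38, Cyp2c67, Cyp2c68 and Cyp2c69, and Cyp2c23, a kidney epoxygenase gene outside the locus, had no peak in any list. With Cyp2c23, the 15 Cyp2c windows had a median of 44236 bp, against 21491 bp over all genes. By length, NPC peaks covered 2.74% of them, against 5.14% of all gene windows. The part of window length in the NPC counts was not tested.

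In family Cyp3, whose enzymes clear many drugs in liver, the lone gene and the cluster differed. Cyp3a13 (gene 13113, chromosome 5, 137892933 to 137925610), an intestinal enzyme gene apart from the others, had 32893 bp (89.7%) from line A, 34950 bp (95.3%) from line B and 2245 bp from NPC. Its widest line B peak was 84288 bp (chr5:137915168-137999455), the widest over any P450 gene in the 3 lists. With gaps under 3 kb between peaks closed, the line B block was 196.9 kb long and reached 5 other protein-coding genes, among them Pilra and Azgp1. In contrast, Cyp3a16, Cyp3a44, Cyp3a11, Cyp3a25 and Cyp3a59 had 0 bp in all 3 lists. Cyp3a57 had 0 bp under line A peaks, 8065 bp under line B peaks and 2697 bp under NPC peaks. The nearest peak to Cyp3a11 lay 304.2 kb away in line A, 285.3 kb in line B and 243.4 kb in NPC.

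**Figure D5:**
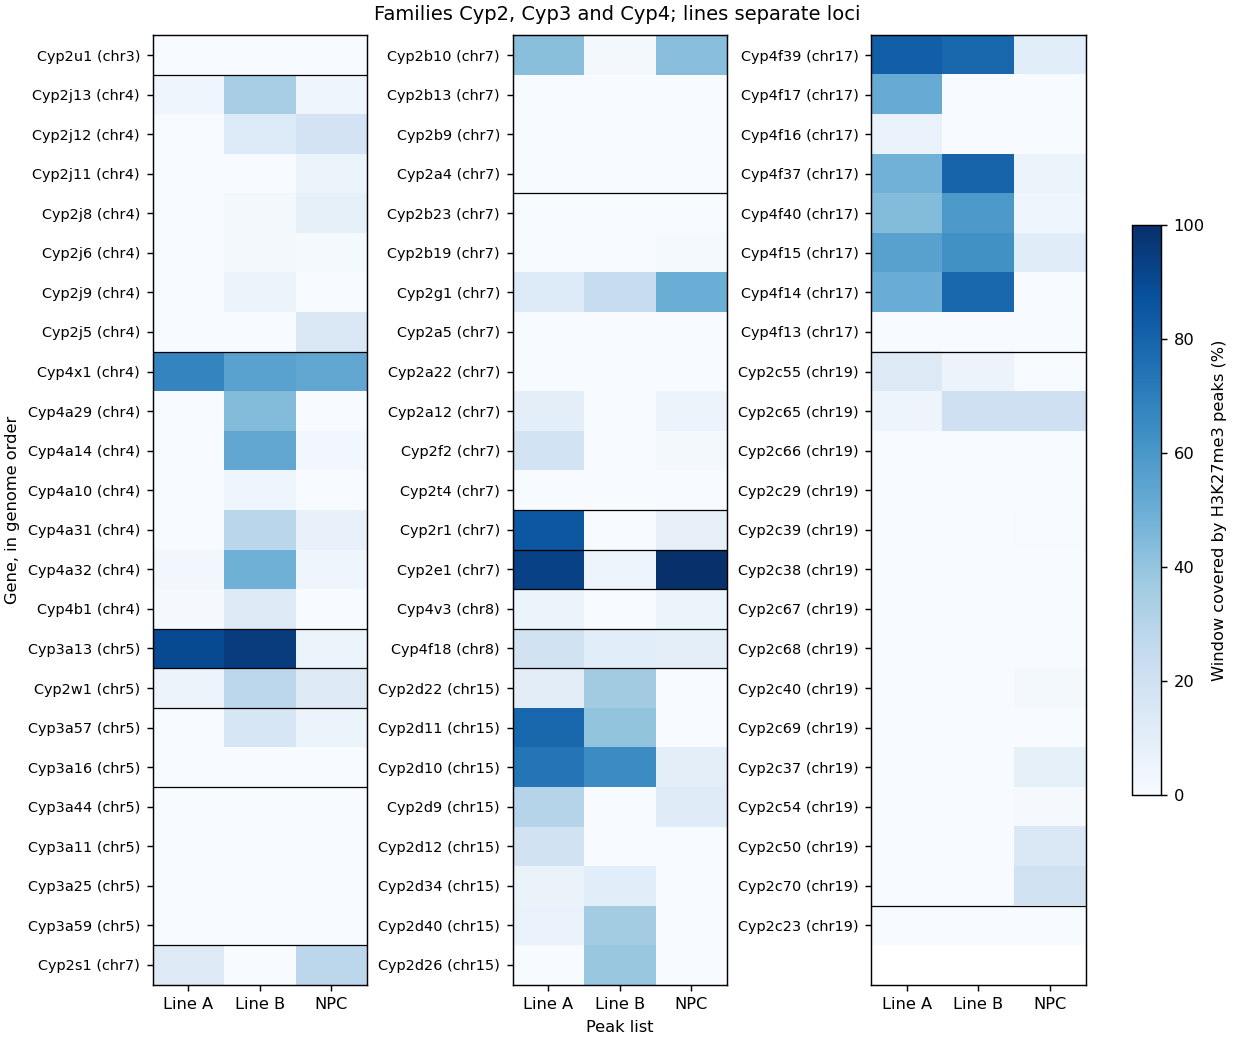
Colour shows the percentage of the window covered by H3K27me3 peaks, from 0 (pale) to 100 (dark), for the 71 P450 genes of families Cyp2, Cyp3 and Cyp4 in genome order, with 1 column per peak list and lines between loci. Cyp3a13 (89.7% and 95.3% in lines A and B) and Cyp2e1 (93.3% in line A, 100% in NPC) stand out from near-empty Cyp3a and Cyp2c rows.

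The 15 P450 genes of chromosome 7 had peaks least often in line B, as did the genes of that chromosome as a whole. Line A peaks reached 7 of the 15 (background of the chromosome's 2030 genes 26.6%), line B peaks 3 (background 19.1%) and NPC peaks 8 (background 39.6%). Cyp2e1 (gene 13106, 140763819 to 140774990), the ethanol-oxidizing enzyme of liver, had 14149 bp from line A, 720 bp from line B and all 15172 bp from NPC. The NPC peak was 42521 bp wide (chr7:140741718-140784238) and also covered Syce1. Cyp2b10, the phenobarbital-inducible liver gene, had 14026 bp from line A, 613 bp from line B and 14145 bp from NPC. Cyp2g1, of the olfactory mucosa, had 2193 bp, 3935 bp and 8172 bp, and was the gene of the chromosome with the most line B coverage among the 15. Cyp2s1 had 2333 bp under line A peaks, 0 bp under line B peaks and 5042 bp under NPC peaks, and Cyp2f2, of lung club cells, 3264 bp, 0 bp and 315 bp. Cyp2a12 had 1129 bp, 0 bp and 686 bp, and Cyp2b19 had its 294 bp in NPC alone. Cyp2b9, Cyp2b13, Cyp2b23, Cyp2a4, Cyp2a5, Cyp2a22 and Cyp2t4 had no peak in any list.

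Other lone genes of the clustered families had at most 4774 bp covered. Cyp4f18, a leukotriene hydroxylase gene of neutrophils on chromosome 8, had 4774 bp from line A, 2718 bp from line B and 2378 bp from NPC. Cyp4v3, whose human counterpart is mutated in a retinal dystrophy, had 1650 bp, 0 bp and 1634 bp in the same order. Cyp2w1, on chromosome 5, had 619 bp under line A peaks, 3056 bp under line B peaks and 1381 bp under NPC peaks. Cyp2u1, a fatty acid hydroxylase gene, had no peak in any list.

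Most P450 genes with a peak and a known start did not have the peak over the start. The RefSeq promoter table held a start for 72 of the 92 genes. The start base stood inside a peak at 16 of the 72 for line A (22.2%, against 12.6% of all genes with a start), 15 for line B (20.8%, against 13.9%) and 10 for NPC (13.9%, against 8.93%). A further 19, 22 and 30 genes had a peak elsewhere in the window. The all-gene start shares also lay well below the shares of all autosomal genes with a peak in the window (32.9%, 33.6% and 26.6%). Peaks away from the start were thus not particular to P450 genes. Only Cyp26a1, Cyp3a13 and Cyp2c65 of the 72 had the start covered in all 3 lists. P450 promoters are poor in CpG, with a median of 3 in 300 bases (observed over expected 0.16), against 14 (0.60) over all 16457 genes with a start. The median was 3.5 CpGs at the 26 P450 genes whose start stood in a peak of at least 1 list and 2 at the other 46. Over all genes the order was the other way, with 8 CpGs where the start was covered and 16 where it was not. Among the P450 genes, Cyp46a1 had the most CpGs (31), then Cyp26a1 (26) and Cyp2r1 (22), and Cyp20a1 (20) and Cyp1b1 (16) were CpG-rich with no peak.

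Several P450 genes have a near-identical copy. Reads from such copies cannot always be placed, and no source used here says how the authors treated them. Cyp2b9 and Cyp2b13 had 2 differing bases (in capitals) in the 250 bases before the start, shown on the plus strand from RefSeq (GRCm38.p6).
Cyp2b9 (chr7:26173159-26173408): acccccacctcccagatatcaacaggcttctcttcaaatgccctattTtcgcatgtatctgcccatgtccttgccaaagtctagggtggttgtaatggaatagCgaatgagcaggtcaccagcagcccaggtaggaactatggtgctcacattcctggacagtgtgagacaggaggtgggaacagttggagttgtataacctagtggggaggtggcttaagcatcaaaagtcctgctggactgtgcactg
Cyp2b13 (chr7:26061245-26061494): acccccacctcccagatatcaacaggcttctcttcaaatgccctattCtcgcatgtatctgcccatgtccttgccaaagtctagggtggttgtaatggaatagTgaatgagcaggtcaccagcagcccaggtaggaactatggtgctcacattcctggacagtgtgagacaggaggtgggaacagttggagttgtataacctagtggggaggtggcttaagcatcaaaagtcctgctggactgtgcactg
Among the 72 P450 genes with a start, 19 had a promoter at least 80% identical to that of another. Of these 19, 11 had no peak in any list (57.9%, against 53.9% of all autosomal genes, with or without a start) and 1 had a peak in all 3. Of the other 53, 9 had no peak in any list (17.0%) and 19 had one in all 3. The share without a peak thus lay near the background in the similar copies and below it in the other genes, at a limit of 80% chosen after the values were seen. The near-identical pairs without a peak were Cyp2b9 and Cyp2b13 (99.3% identical), Cyp2a4 and Cyp2a5 (97.7%), Cyp3a25 and Cyp3a59 (95.7%), Cyp3a16 and Cyp3a44 (93.4%) and Cyp2c68 and Cyp2c69 (91.1%). The 8 similar copies with a peak included Cyp3a57 (90.8% identical to Cyp3a59) in 2 lists and Cyp2c50 and Cyp2c37 (86.6%) in 1. The part of read placement in these values was not tested.

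Regulators of P450 genes all had a peak in at least 1 list except Arnt, the partner of the aryl hydrocarbon receptor. Of the 10 genes, 6 had a line A peak (background 32.9%), 8 a line B peak (background 33.6%) and 5 an NPC peak (background 26.6%). Among the 10, Hnf4a, Ahrr and Nr1i2 had the most covered bp over the lists together. Hnf4a, a factor of liver and gut, had 43919 bp from line A, 27437 bp from line B and 9677 bp from NPC. Nr1i2, the drug sensor that switches on Cyp3a genes in liver, had 13939 bp, 25875 bp and 0 bp. Coverage of Hnf4a and Nr1i2 was thus larger in both fibroblast lists than in NPC. Ptgis and Tbxas1, P450 enzymes of prostacyclin and thromboxane synthesis whose symbols fall outside the pattern, had a peak in each list, with 28473 bp, 17059 bp and 12913 bp at Ptgis. Cyp51, which acts in cholesterol synthesis in every tissue, had none.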

How the data were processed

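The H3K27me3 libraries (12 of ChIP-seq from fibroblasts and 6 of CUT&RUN from NPC) were grouped by their labels. The authors deposited 3 peak lists of 3 columns (other units: chromosome, start and end), with no header, score or count. The submitters' processing notes list MACS2 2.1.1.20160309, Bowtie2 2.2.9, deepTools, Picard and DESeq2, and as builds dm6 and mm10, without saying what each was used for. Peak threshold, control and pooling: not given in the sources used here. Starts were read as 0-based and printed 1-based.

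Peak bp was summed over each of 20665 autosomal gene records of RefSeq GRCm38.p6 and 2 kb on each side (Python 3.11.15, numpy 2.4.6, pandas 2.3.3). Promoter identity came from global alignment of 300 bases (Biopython 1.88), and the limit of 80% was chosen after values were seen. Where a gene had several starts, the outermost was used. The overlap code was tested on simulated peaks. Members and lists were chosen with earlier results of these data known. Genes were named by this rule: members outside families Cyp2, Cyp3 and Cyp4; members with at least 25% of the window covered in 1 list or more; the 5 most covered and the least covered above 0 in each list; members of the clustered families with a peak in at least 2 lists; and up to 3 companion genes per group. The companion genes of a group were those with the most covered bp summed over the lists, so their values are not typical of the group. All other genes were named after their values were seen.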

Additional observations from a re-analysis of the deposited data

How the results depend on the processing

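Counts of P450 genes with a peak were recomputed under 9 settings, 8 of them planned and 1, without chromosome 7, chosen after seeing the data. Each setting gave 11 counts, and 67 of the 99 stayed within 1.5 times the value reported. All 11 stayed so for the record alone, 5 kb on each side, at least 500 bp covered, the same number (44807) of widest peaks, and without chromosome 7. With 10 kb on each side, 38 genes had a peak in all 3 lists. The other settings are stricter by construction. With at least 50% of the window covered, 16 genes were counted with line A peaks, 14 with line B peaks and 6 with NPC peaks, made up of 10, 9 and 3 of the clustered families and 6, 5 and 3 of the others, with 2 in all 3 lists and 68 in none. The clustered families' NPC share (4.23%) was then level with the background (4.25%). With peaks at least 3 kb wide the counts were 27, 31 and 16, made up of 17, 20 and 10 clustered and 10, 11 and 6 others, with 6 in all 3 and 43 in none. The excess over all genes was then lost for clustered families in NPC (14.1%, against 15.2%) and for peaks in all 3 lists (6.52%, against 7.09%), while all P450 genes stood at 29.3%, 33.7% and 17.4%, against 22.5%, 22.2% and 15.2%. Within 2 kb of the RefSeq start, for the 72 genes with one, they were 27, 24 and 19, made up of 18, 14 and 12 clustered and 9, 10 and 7 others, with 9 in all 3 and 35 in none. The excess was then lost for clustered families in line B (23.7%, against 24.7%), while all P450 genes stood at 37.5%, 33.3% and 26.4%, against 23.4%, 24.7% and 17.1%. In every other setting run, each of the 11 shares stayed on its side of the background. The order of the classes was reversed in NPC with 5 kb on each side, at 60.6% of clustered and 57.1% of other families. No paired analysis was possible because the peak lists carry no replicate. Depth is unknown, so what it limits could not be measured.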
